A study of Mus musculus with 11 samples.

Results

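The genes described here are 28 genes of cholesterol and fatty acid synthesis, chosen by name: 7 of the mevalonate arm, 11 of the arm from squalene to cholesterol, 5 that sense sterols, activate the pathway or carry cholesterol, and 5 of fatty acid synthesis. All 28 are among the 29224 genes of the bulk table and among the 31053 genes of the single-cell matrix. The series holds 11 mouse samples of T cells on the C57BL/6 background from draining lymph nodes, and values of 3 were used: 1 bulk RNA-seq library of follicular regulatory T (Tfr) cells labelled WT, 1 of Tfr cells labelled as homozygous for the Sostdc1 mutation (KO), and 1 droplet library of single CD4 T cells that carried CD44, from mice heterozygous for a Sostdc1-EGFP reporter. Tfr cells were sorted as CXCR5-positive, PD-1-positive cells with high GITR. The labels give no age, immunisation or number of animals, and do not say which part of Sostdc1, whose secreted product antagonises BMP and Wnt ligands, is removed. Not analysed here were the other 8 samples, of which 6 are RNA libraries of Tfh or non-Tfh cells and 2 are ATAC libraries. Each group had 1 library, so no difference below has a replicate check or a test. Intervals throughout are exact, at 95%, and cover only the error of counting; bulk reads carry no molecular identifiers and are not independent molecules.

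Cells make cholesterol from acetyl-CoA. The mevalonate arm builds isoprenoids up to farnesyl diphosphate, squalene synthase commits them to sterols, and a series of oxidations, reductions and isomerisations turns lanosterol into cholesterol. SREBP transcription factors, held in the endoplasmic reticulum by SCAP and INSIG when sterols are plentiful, switch on the enzymes of both sterol and fatty acid synthesis when sterols run low, while the oxysterol receptors (LXR) switch on cholesterol export. Proliferating lymphocytes need new membrane lipid, and mevalonate metabolism is known to bear on the function of regulatory T (Treg) cells.

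Promoters are shown first, since many of these genes are known targets of SREBP. RefSeq windows on GRCm38.p6, from 250 bases before to 50 after the annotated start, matched 23 of the 28 genes; Fdps, Fdft1, Sqle, Stard4 and Scd2 had none. The 250 bases before the start are printed 5′ to 3′ for the genes on which the results below turn: Hmgcs1 (chr13:119690101-119690350, plus strand), Idi1 (chr13:8885356-8885605, plus strand), Cyp51 (chr5:4104698-4104947, minus strand), Ebp (chrX:8193513-8193762, minus strand) and Mvd (chr8:122443423-122443672, minus strand). Capitals mark matches on either strand to TCACNCCAC, a loose form of the sterol regulatory element bound by SREBP, and to ATTGG, the NF-Y box, whose other strand reads CCAAT.
Hmgcs1: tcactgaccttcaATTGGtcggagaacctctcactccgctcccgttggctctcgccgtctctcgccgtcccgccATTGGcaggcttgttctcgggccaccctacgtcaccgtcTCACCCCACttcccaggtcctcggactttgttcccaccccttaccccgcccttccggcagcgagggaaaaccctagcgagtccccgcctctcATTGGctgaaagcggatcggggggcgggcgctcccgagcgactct
Idi1: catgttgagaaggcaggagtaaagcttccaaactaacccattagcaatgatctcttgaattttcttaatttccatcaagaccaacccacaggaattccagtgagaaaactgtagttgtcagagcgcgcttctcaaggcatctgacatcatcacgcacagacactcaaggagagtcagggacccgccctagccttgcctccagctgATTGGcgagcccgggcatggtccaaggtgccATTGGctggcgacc
Cyp51: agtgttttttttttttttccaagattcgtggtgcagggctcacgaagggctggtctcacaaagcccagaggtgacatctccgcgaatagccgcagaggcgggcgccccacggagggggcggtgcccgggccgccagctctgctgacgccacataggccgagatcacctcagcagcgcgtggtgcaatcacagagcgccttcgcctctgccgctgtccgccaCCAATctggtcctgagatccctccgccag
Ebp: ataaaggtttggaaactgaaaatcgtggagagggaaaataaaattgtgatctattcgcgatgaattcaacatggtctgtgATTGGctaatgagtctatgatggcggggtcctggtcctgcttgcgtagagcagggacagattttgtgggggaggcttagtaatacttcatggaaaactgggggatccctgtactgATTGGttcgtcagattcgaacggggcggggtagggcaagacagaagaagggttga
Mvd: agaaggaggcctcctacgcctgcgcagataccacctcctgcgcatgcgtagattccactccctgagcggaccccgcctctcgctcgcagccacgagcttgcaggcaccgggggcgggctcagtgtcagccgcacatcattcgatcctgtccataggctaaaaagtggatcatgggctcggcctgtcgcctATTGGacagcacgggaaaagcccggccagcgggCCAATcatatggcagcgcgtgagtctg

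The NF-Y box was in the windows of 19 of the 23 matched genes (82.6%), against 41.1% of the 27025 genes of the RefSeq table. It was in 9 of 9 genes of the squalene to cholesterol arm, 5 of 6 of the mevalonate arm, 3 of 4 of the sensing group and 2 of 4 of fatty acid synthesis. The Sp1 box GGGCGG was also in 19 of 23, against 38.2%. The loose sterol element was in 1 of 23, Hmgcs1, where it starts 137 bases before the annotated start, against 1.44% of all genes, and the strict form, in which an A precedes these letters and a C stands at the N, was in 0 of 23, against 0.0999%. These letters and windows are a description and say nothing of binding.

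Depth and labels bear on the bulk comparison. The library labelled KO held 27777625 counts and the library labelled WT 18076300. Sostdc1, the targeted gene, went against the labels, with 458 counts under the label KO and 4 under the label WT, and the libraries also differed in sex-linked RNA, with Xist at 34234 against 39 counts and Ddx3y at 6 against 3557. Foxp3, the Treg master regulator, stood at 1164 and 1471 CPM (counts scaled to a library total of 1000000), Cxcr5 at 62.8 and 55.7 and Pdcd1 at 229 and 164, KO label first. Every direction below compares the libraries as labelled, not the genotypes. In bulk RNA, fewer cells of a type and less RNA per cell cannot be told apart.

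In the Tfr library labelled KO, 5 enzymes of the mevalonate and sterol arms, with Insig1 and Stard4, were at least 1.5-fold higher, and Mvk, Mvd, Srebf1 and Scap at least 1.5-fold lower. A filter of 5 CPM in 1 library or more kept 26 members. On the scale of log2(CPM + 1), 0 of these were at least 2-fold higher, where 2.6% of 10191 genes were, and 2 were at least 2-fold lower, Mvd and Srebf1, where 9.13% were. At 1.5-fold, 7 were higher (Idi1, Cyp51, Lss, Hsd17b7, Insig1, Pmvk and Stard4), where 9.47% of all genes were, and 4 were lower (Mvk, Mvd, Srebf1 and Scap), where 19.7% were. The median log2 ratio over the 26 was 0.34, and over all 10191 genes it was −0.04. All 10 tested genes of the squalene to cholesterol arm had a ratio above 1, as did 46.6% of all genes. The authors' deposited table marks as significant the same members that were 2-fold lower here, Srebf1 (fold change 0.439) and Mvd (0.443). Its marks rest on 1 library per group. They also cover barely counted genes, so no share over the whole table is set beside them.

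**Figure D1:**
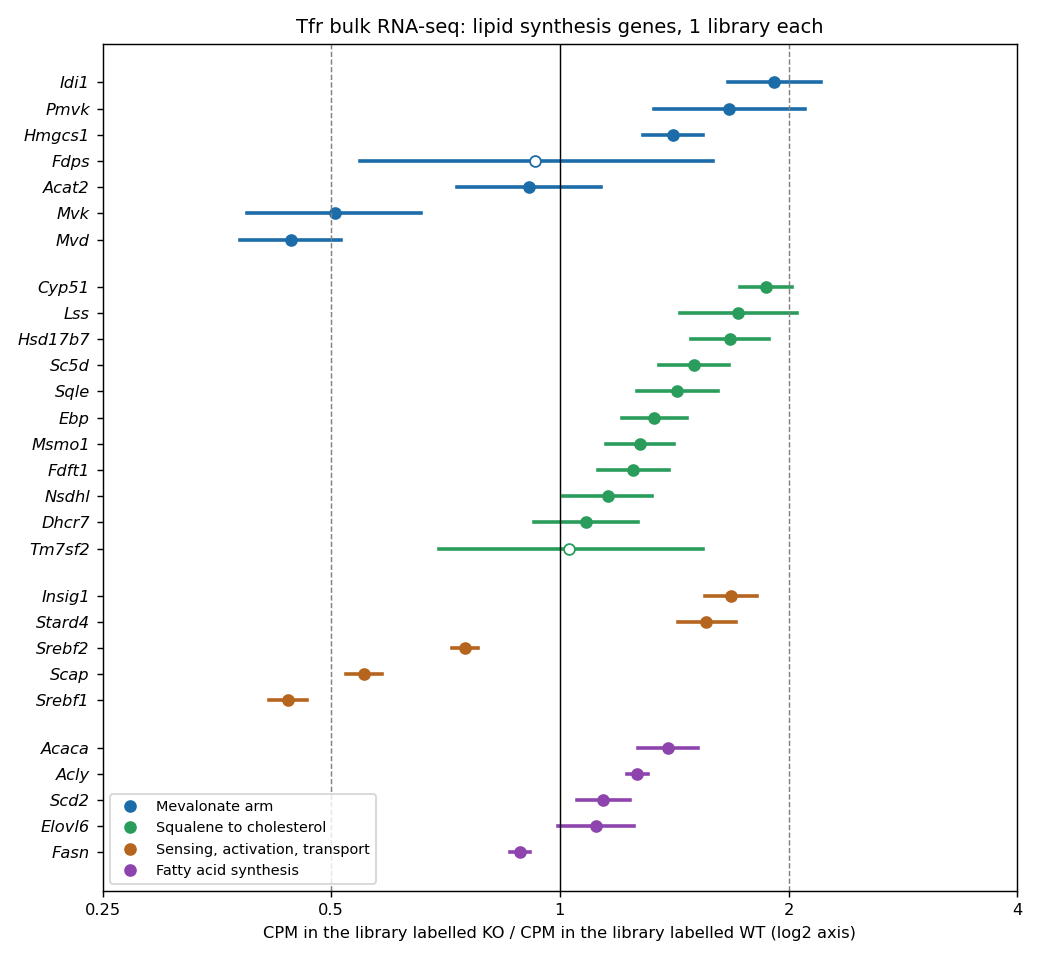
Ratio of CPM in the Tfr library labelled KO to that in the library labelled WT for the 28 genes, on a log2 axis, with exact conditional binomial 95% intervals; open points are the 2 genes under 5 CPM in both libraries and dashed lines mark 2-fold. Cyp51 (1.87) leads the squalene to cholesterol arm, whose points all lie above 1, whereas Mvd (0.443) and Srebf1 (0.439) lie below 0.5.

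The mevalonate arm went both ways. Idi1, the isomerase that makes the reactive isoprene unit, stood at 28.3 CPM under the KO label and 14.8 under the WT label, a ratio of 1.91 (1.66 to 2.21). Pmvk, phosphomevalonate kinase, stood at 9.97 and 5.97 CPM, a ratio of 1.67 (1.33 to 2.105), and Hmgcs1, which makes HMG-CoA, at 55.9 and 39.7 CPM, a ratio of 1.41 (1.29 to 1.54). The kinase before Pmvk and the decarboxylase after it lay on the other side of 1. Mvk, mevalonate kinase, stood at 3.74 and 7.41 CPM, 1.98-fold lower (1.52 to 2.58), and Mvd, mevalonate diphosphate decarboxylase, at 10.4 and 23.5 CPM, 2.26-fold lower (1.94 to 2.63). Mvk passed the filter of 5 CPM only through the library labelled WT, where it is higher. The 3 consecutive enzymes Mvk, Pmvk and Mvd thus did not share a direction. Acat2, the cytosolic thiolase at the start of the pathway, had 204 and 146 counts and a ratio of 0.909 (0.732 to 1.13); its neighbour Acat3, a close paralog, had 27 and 10. Fdps, farnesyl diphosphate synthase, had only 37 and 26 counts, so its ratio of 0.926 (0.546 to 1.59) is imprecise.

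In the arm from squalene to cholesterol, all ratios lay above 1. Cyp51, lanosterol demethylase, stood at 86.9 CPM against 46.5 under the WT label, a ratio of 1.87 (1.73 to 2.02). Lss, lanosterol synthase, stood at 16.7 and 9.74 CPM, a ratio of 1.72 (1.44 to 2.05), and Hsd17b7, a sterol ketone reductase, at 36.6 and 21.9 CPM, a ratio of 1.67 (1.49 to 1.88). Sc5d, a late desaturase, followed at a ratio of 1.5 (1.35 to 1.67). Sqle, the squalene epoxidase, stood at 30.2 and 21.1 CPM (ratio 1.43, 1.26 to 1.62), Ebp, the sterol isomerase, at 44.4 and 33.3 CPM (1.33, 1.21 to 1.47), Msmo1, which oxidises methylsterols, at 40.3 and 31.6 CPM (1.27, 1.15 to 1.41), and Fdft1, squalene synthase, at 36.0 and 28.8 CPM (1.25, 1.12 to 1.39). Smaller differences were those of Nsdhl, a demethylating sterol dehydrogenase, at 21.7 and 18.8 CPM (1.16, 1.01 to 1.32), and Dhcr7, the last reductase, at 15.3 and 14.1 CPM (1.08, 0.924 to 1.27). Ebp and Nsdhl are X-linked, and the libraries differ in Xist. Tm7sf2, a sterol reductase under the filter, had 68 and 43 counts and a ratio of 1.03 (0.692 to 1.54).

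The 5 genes of sensing, activation and transport did not share a direction. The 3 genes of the activating machinery had ratios below 1, and Srebf1 and Scap passed 1.5-fold. Srebf1, which encodes SREBP1, the isoform tied to fatty acid synthesis and itself an LXR target, stood at 73.5 against 167 CPM, 2.28-fold lower (2.15 to 2.41). Scap, the escort of SREBP, stood at 86.7 against 157 CPM, 1.81-fold lower (1.71 to 1.91), and Srebf2, which encodes SREBP2, the isoform tied to cholesterol synthesis, at 194 against 259 CPM, 1.33-fold lower (1.28 to 1.39). Insig1 and Stard4 had ratios above 1, as did the squalene to cholesterol arm, but unlike Mvk and Mvd of the mevalonate arm. Whether SREBP activity differed was not tested. Insig1, the retention protein that closes the feedback loop, stood at 81.6 against 48.6 CPM, a ratio of 1.68 (1.55 to 1.82), and Stard4, a cholesterol carrier, at 62.5 against 40.1 CPM, a ratio of 1.56 (1.43 to 1.70). The gene span of Srebf1 overlaps Rai1 and that of Srebf2 holds Mir33; the strand setting of the counting was not given in the sources used here.

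With library totals, no fatty acid synthesis gene passed 1.5-fold. Acly, which makes cytosolic acetyl-CoA from citrate, was abundant at 413 against 327 CPM, a ratio of 1.27 (1.23 to 1.31), and Fasn, fatty acid synthase, stood at 369 against 416 CPM, a ratio of 0.887 (0.861 to 0.914). Acaca, acetyl-CoA carboxylase, stood at 53.1 against 38.3 CPM, a ratio of 1.39 (1.27 to 1.52), and its log2 ratio passed 1.5-fold when scaled by a trimmed mean (0.61) or by median of ratios (0.68). Scd2, a desaturase, and Elovl6, an elongase, had ratios of 1.14 (1.05 to 1.24) and 1.11 (0.995 to 1.25). Scd1, a paralog of Scd2, was low, at 91 and 23 counts.

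Among 36 other genes of lipid metabolism listed by name, 25 passed the filter in bulk, with a median log2 ratio of −0.04. None was at least 2-fold higher, and 3 were at least 2-fold lower, Nr1h2, Mylip and Abcg1, beside the 9.13% of all genes. Nr1h2, which encodes the receptor LXR beta, stood at 65.8 against 204 CPM, 3.09-fold lower (2.92 to 3.27) in the library labelled KO. Abcg1, a cholesterol exporter and LXR target, stood at 47.5 against 131 CPM, 2.77-fold lower (2.58 to 2.96). Mylip, an LXR-induced ligase that limits uptake of lipoprotein cholesterol, stood at 10.8 against 26.1 CPM, 2.40-fold lower (2.08 to 2.79), and Abca1, the other exporter, at 20.2 against 39.2 CPM, 1.94-fold lower (1.74 to 2.17). At 1.5-fold, 4 of the 25 were lower (Nr1h2, Mylip, Abca1 and Abcg1), where 19.7% of all genes were. Whether LXR activity differed was not tested. Of the 25 past the filter, 1 was at least 1.5-fold higher, beside the 9.47% of all genes: Acat1, the mitochondrial thiolase, at 25.6 against 16.1 CPM. Under the filter, Scd1 had a ratio of 2.57 (1.61 to 4.26) and Soat2, which esterifies cholesterol, one of 1.95 (1.14 to 3.47).

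Scaling moves these bulk values together. Scaling by a trimmed mean of M values (TMM) shifted the median log2 ratio of all genes from −0.04 to 0.11, and median-of-ratios scaling shifted it to 0.18. With TMM, 414 genes were at least 2-fold higher and 688 lower, so that 37.6% of those past the rule were higher, and with median-of-ratios scaling 45.9%, against 22.2% with library totals. Under either, Idi1 and Cyp51 passed 2-fold and Mvd did not, and Srebf1 passed with TMM (−1.03) but not with median-of-ratios scaling (−0.96). Directions turned for Fasn, from −0.17 with library totals to 0.05 with median-of-ratios scaling, for Acat2, from −0.12 to 0.08, and for Fdps, under the filter, from −0.064 to 0.066. Markers of other cells stood beside these differences at low or similar sums: 4 B cell genes summed to 10.8 and 12.4 CPM, 4 myeloid genes to 70.9 and 64.0, 4 NK or CD8 genes to 13.9 and 11.01, 3 plasma cell genes to 2.66 and 4.92, 3 stromal genes to 2.27 and 4.81, and 2 erythroid genes to 0 and 1.94, again with the KO label first. Summed levels of 8 cycling genes were 843 and 819 CPM and of 7 effector Treg genes 6066 and 5027. The part of any of these in the lipid genes was not tested.

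The single-cell library places the same genes in named T cell states. It held 15002 barcodes and 106127466 unique molecular identifiers (UMIs), and 11871 cells remained after filters and removal of likely doublets. T cells, with a UMI of Cd3d, Cd3e or Cd3g and few of B cell or myeloid genes, numbered 9347. Gates on marker UMIs, each cell in at most 1, held 1936 resting cells (Ccr7 and 1 more marker, without Foxp3, Cxcr5 or Pdcd1), 690 Treg cells (Foxp3 without Klrg1, Itgae, Gzmb or Cxcr5), 404 effector Treg cells (Foxp3 with at least 2 of Klrg1, Itgae and Gzmb), 45 Tfr cells (Foxp3, Cxcr5 and Pdcd1), 595 follicular helper T (Tfh) cells (Cxcr5 and Pdcd1 without Foxp3) and 335 cycling cells (Mki67 and Top2a). Markers that the gates did not use followed the names: 6 Treg genes such as Il2ra and Ikzf2 summed to 3642 CPM in effector Treg, 1989 in Tfr, 1405 in Treg and 222 in resting cells, 6 Tfh genes such as Bcl6 and Il21 to 1080 in Tfh, 671 in Tfr and 166 in resting cells, and 6 cycling genes to 1714 in cycling cells and 36.1 to 102 elsewhere. Cells of 1 library are not replicates, so gates are compared by size and counting interval alone.

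Together the 28 genes summed to 407 CPM in resting cells (396 to 418), 476 in Treg (454 to 498), 632 in Tfh (608 to 656), 711 in effector Treg (678 to 746) and 743 in cycling cells (719 to 767). Tfr cells gave 189 UMIs of these genes and a level of 585 (504 to 674). Intervals of effector Treg and cycling cells overlap, as do those of Tfr and Tfh cells. Per cell the sums were 2.60 UMIs in resting and 10.8 in cycling cells, whose median depth was 6074 and 13000 UMIs per cell. The order differed between arms. The squalene to cholesterol arm was highest in effector Treg cells (324, 302 to 348), the mevalonate arm in cycling cells (198, 186 to 211), and fatty acid synthesis in Tfh cells (189, 177 to 203), each with an interval apart from the 4 other gates that held over 100 cells, except that the sterol arm in effector Treg and in cycling cells (287, 272 to 303) met at the edge. Ebp alone gave 55.0% of the sterol arm's UMIs in effector Treg and 40.6% to 47.8% in the other gates. Without it, the arm stood at 146 in effector Treg (131 to 162) and 159 in cycling cells (148 to 171), in the reverse order but with intervals that overlap. Scd2 gave 384 of the 824 fatty acid UMIs in Tfh cells, and that sum was not taken without it.

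**Figure D2:**
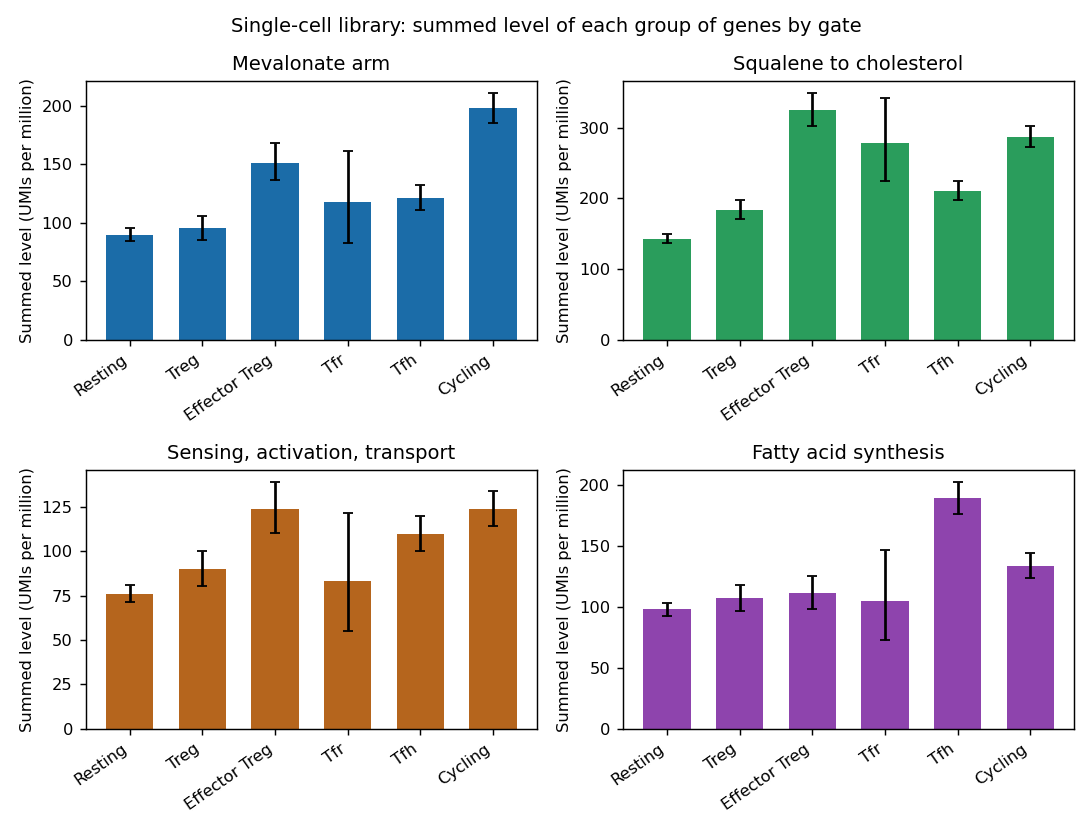
Summed level in CPM of UMIs of each group of genes in the 6 gates of the single-cell library; error bars are exact Poisson 95% intervals, which cover counting error only. The squalene to cholesterol arm is highest in effector Treg cells (324), the mevalonate arm in cycling cells (198) and fatty acid synthesis in Tfh cells (189), and the wide bars of the Tfr gate reflect its 45 cells.

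Single members varied in their highest gate, in numbers not far from the shares of all genes. Leaving out the small Tfr gate, 25 members had at least 10 CPM in a gate; the highest gate was cycling for 9, effector Treg for 8, Tfh for 7, resting for 1 and Treg for 0, beside 27.8%, 31.2%, 25.4%, 5.86% and 9.63% of the 8287 genes at that level. The highest gate stood apart from the next one, by the interval of their ratio, for 13 of the 25, and for 40.1% of all 8287 genes. These members were Idi1, Fdps, Acat2, Sqle and Stard4 in cycling cells, Hmgcs1, Mvd, Ebp and Srebf2 in effector Treg cells, and Scd2, Fasn, Mvk and Tm7sf2 in Tfh cells. For Sqle, Hmgcs1, Mvk, Srebf2 and Fasn the lower bound of the ratio was only 1.008 to 1.03. The gates compared were picked by their levels, and the intervals do not allow for that choice. Of the 25, 16 were lowest in resting cells, as were 47.2% of all 8287 genes. By UMIs over all gated and ungated T cells, which count transcripts without regard to length, Ebp was the most abundant member at 84.3 CPM, followed by Scd2 at 41.7, Srebf2 at 41.6, Acly at 38.3 and Fdps at 35.6, and Lss was the lowest at 3.08.

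**Figure D3:**
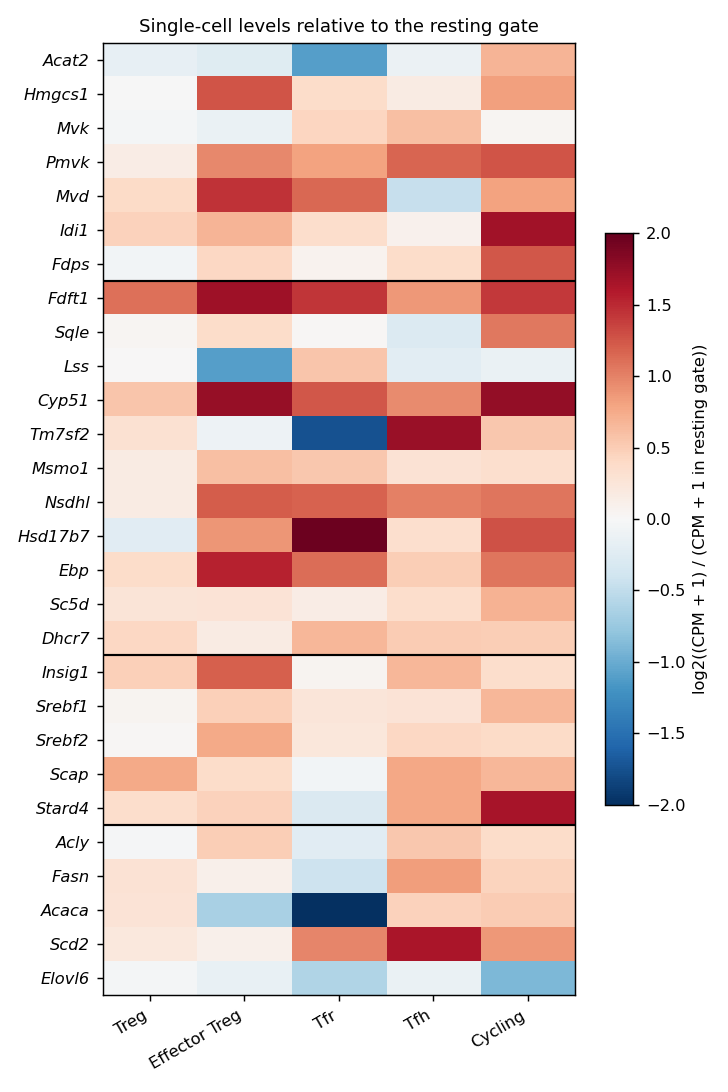
Level of each gene in 5 gates relative to the resting gate, as a difference of log2(CPM + 1), with colours limited to 2 in either direction; lines separate, from the top, the mevalonate arm, the squalene to cholesterol arm, the sensing group and fatty acid synthesis. Idi1 and Stard4 are strongest in cycling cells, Ebp in effector Treg and Scd2 in Tfh cells; Tfr cells rest on 0 to 43 UMIs a gene, with 0 for Tm7sf2 and Acaca.

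Effector Treg cells carried more sterol synthesis transcripts than Treg cells without effector markers, and no more of those for fatty acid synthesis. Of 21 members with at least 10 CPM in either gate, 5 were at least 2-fold higher in effector Treg cells, where 8.36% of 7551 genes were, and 0 were 2-fold lower, where 2.97% were. Hmgcs1 had 35.2 CPM there and 14.2 in Treg cells (2.49-fold, 1.74 to 3.57), Pmvk was at 27.6 against 15.2 (1.81-fold, 1.25 to 2.63), Cyp51 at 31.0 against 13.1 (2.36-fold, 1.63 to 3.46) and Ebp at 178 against 78.7 (2.27-fold, 1.95 to 2.64). Nsdhl and Mvd were 2.22-fold (1.32 to 3.79) and 2.21-fold (1.38 to 3.57) higher, and both passed the filter only through the effector Treg gate. In the sensing group Insig1 was 1.72-fold (1.04 to 2.85) and Srebf2 1.68-fold (1.32 to 2.12) higher. Insig1 also passed the filter only through the effector Treg gate. Srebf1 had a ratio of 1.36 (0.921 to 1.99), and Scap stood at 12.7 against 17.0 CPM (ratio 0.747, 0.468 to 1.17). The members did not all share the difference: Idi1, Sc5d and Dhcr7 had intervals that include 1. The median log2 ratio was 0.47 over the 21 and 0.18 over all genes. Fatty acid synthesis as a sum stood at 111 against 107 CPM (ratio 1.04, 0.887 to 1.22), with Acly at 1.45-fold (1.11 to 1.89) and Fasn, Scd2 and Elovl6 at 0.870, 0.921 and 0.929. Beside this, B cell and myeloid marker sums were 40.8 and 163 CPM in effector Treg against 27.8 and 96.8 in Treg cells, and 6725 of 6732 haemoglobin UMIs of the effector Treg gate came from 1 cell, whose removal kept every summed direction. The part of the B cell and myeloid RNA was not tested. Without Ebp the log2 ratio of the summed sterol arm was 0.47 rather than 0.82, and without removal of doublets 3 members passed 2-fold rather than 5.

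In Tfh cells, Scd2 and Tm7sf2 had the largest ratios to resting cells among the members tested. Tm7sf2, at 10.1 CPM, Nsdhl, Cyp51, Mvk, Scap, Stard4, Fdft1 and Idi1 passed the filter only through the Tfh gate, where they are higher. Their ratios, and the median over members that includes them, are therefore a description. The same filter was applied to all genes. Of 21 members tested, 4 were at least 2-fold higher in Tfh cells, where 10.6% of 7395 genes were, and 0 were 2-fold lower, where 2.14% were. Scd2 had 88.2 CPM in Tfh and 27.7 in resting cells (3.19-fold, 2.75 to 3.70), and it was 2.97-fold higher (2.30 to 3.89) than in effector Treg cells, a pair compared after the levels were seen. Tm7sf2 stood at 10.1 against 2.35 CPM (4.31-fold, 2.64 to 7.15) on 44 and 29 UMIs, Pmvk at 31.7 against 13.7 (2.32-fold, 1.84 to 2.92) and Nsdhl at 13.6 against 6.23 (2.18-fold, 1.52 to 3.096). Cyp51, at 17.5 against 8.57 CPM, lay just under 2-fold on the log2(CPM + 1) scale. Mvk was 1.58-fold (1.13 to 2.17), Fdps 1.30-fold (1.07 to 1.56) and Acly 1.47-fold (1.24 to 1.74) higher. Fasn was 1.84-fold (1.47 to 2.29), Scap 1.78-fold (1.31 to 2.39) and Stard4 1.81-fold (1.29 to 2.51) higher, whereas Elovl6 stood at 13.3 against 14.6 CPM (ratio 0.911, 0.665 to 1.23). Genes in general were higher in Tfh cells on this scale, with a median log2 ratio of 0.36 over all genes and 0.54 over the 21. Summed fatty acid synthesis was 1.93-fold higher (1.77 to 2.11) and the summed sterol arm 1.47-fold (1.36 to 1.60), with intervals apart. Scd2 alone gave 384 of the 824 fatty acid UMIs in Tfh cells and 342 of 1211 in resting cells. The sum without Scd2 was not compared, so the difference between arms may rest on this gene. Of the 23 other listed lipid genes tested, 0 were 2-fold higher and 2 lower: Acss2, which makes acetyl-CoA from acetate, was 3.43-fold lower (2.27 to 5.41) and the lysosomal cholesterol carrier Npc2 2.66-fold lower (2.49 to 2.84) in Tfh cells. Without removal of doublets 2 members passed 2-fold.

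**Figure D4:**
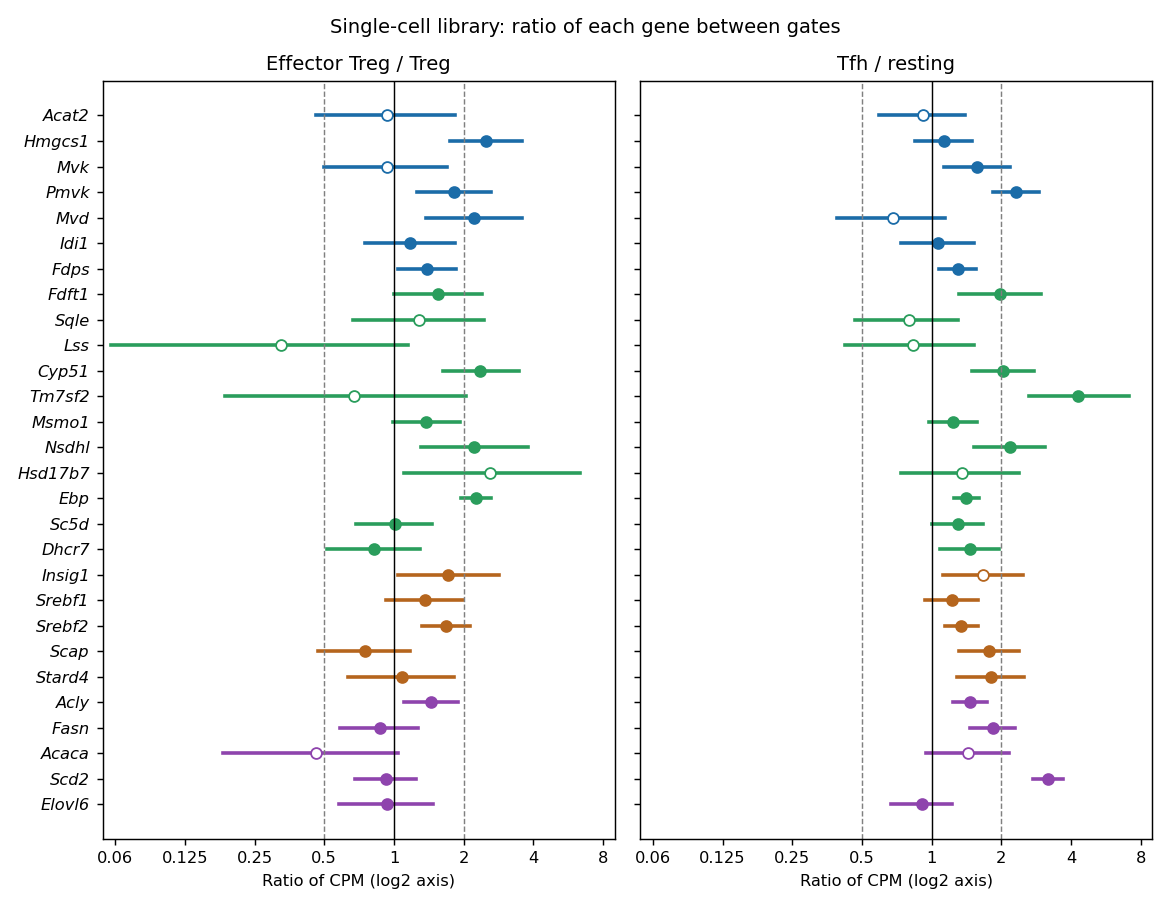
Ratio of CPM for each gene in effector Treg over Treg cells (left) and in Tfh over resting cells (right), on log2 axes, with exact conditional binomial 95% intervals; open points are genes under 10 CPM in both gates, dashed lines mark 2-fold, and colours mark, from the top, the mevalonate arm, the squalene to cholesterol arm, the sensing group and fatty acid synthesis. Hmgcs1, Cyp51 and Ebp exceed 2-fold on the left, whereas Scd2 (3.19) and Tm7sf2 (4.31) lead on the right. Tm7sf2 is just over the filter, at 10.1 CPM in Tfh cells.

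Tfh and effector Treg cells were set side by side because each was highest for an arm, so their values are a description. The summed sterol arm had a log2 ratio of −0.62, or −0.22 without Ebp. Mvd was 4.38-fold (2.51 to 7.92), Hmgcs1 2.19-fold (1.57 to 3.06) and Ebp 2.08-fold (1.81 to 2.40) lower in Tfh cells, whereas Scd2, Tm7sf2 (4.76-fold, 1.89 to 15.4), Mvk (1.74-fold, 1.02 to 3.08) and Fasn (1.70-fold, 1.197 to 2.45) were higher. At 2-fold, 2 of 23 members were higher, where 5.55% of genes were, and 3 lower, where 7.79% were. Of the genes named here, Tm7sf2 and Mvk passed the filter only through the Tfh gate and Mvd only through the effector Treg gate.

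Cycling cells were compared with resting cells in the same way. Of 22 members tested, 9 were at least 2-fold higher, where 18.9% of 7551 genes were, and 16 at least 1.5-fold, where 35.5% were; 0 were 2-fold lower, where 3.73% were. Cyp51 stood at 31.5 against 8.57 CPM (3.67-fold, 2.85 to 4.75), Idi1 at 32.5 against 9.46 (3.44-fold, 2.69 to 4.40), Stard4 at 26.6 against 7.76 (3.42-fold, 2.61 to 4.50) and Fdft1 at 15.3 against 5.09 (3.01-fold, 2.12 to 4.28). Pmvk, Fdps, Nsdhl, Ebp and Sqle were the others past 2-fold, Fdps at 71.4 against 29.4 CPM. Of these, Cyp51, Idi1, Stard4, Fdft1, Nsdhl and Sqle passed the filter only through the cycling gate, where they are high. Their calls are therefore a description, and the same filter was applied to all genes. Scd2 was 1.86-fold (1.57 to 2.19) and Fasn 1.38-fold (1.09 to 1.74) higher. Elovl6 was the 1 member at least 1.5-fold lower, where 9.89% of genes were, at 7.36 against 14.6 CPM (1.99-fold, 1.39 to 2.93). Of the regulators, Srebf1 and Scap were 1.62-fold and 1.64-fold and Srebf2 1.31-fold higher. Scap, too, passed the filter only through the cycling gate. The median log2 ratio was 0.81 over the 22 and 0.34 over all genes. Among 22 other listed genes tested, 2 were 2-fold higher and 4 lower. Lbr, a nuclear envelope sterol reductase, was 2.33-fold (2.13 to 2.56) and the elongase Elovl1 2.16-fold (1.80 to 2.58) higher, and Abca1, Acss2, Mylip and Npc2 were 3.40-fold, 3.11-fold, 2.68-fold and 2.54-fold lower. Between Foxp3-positive and Foxp3-negative cycling cells, 105 and 230, 0 of 22 members passed 2-fold in either direction, near the 2.54% and 2.21% of genes that did. The summed sterol arm had a ratio of 1.01 (0.905 to 1.14). Summed fatty acid synthesis was lower in the Foxp3-positive ones, at 114 against 142 CPM (ratio 0.804, 0.673 to 0.958), and within it Scd2 at 41.2 against 55.9 (ratio 0.736, 0.544 to 0.984). Sqle had a ratio of 0.580 (0.297 to 1.06) and passed the filter only through the Foxp3-negative cells.

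The Tfr gate was too small for most single genes. As sums, the squalene to cholesterol arm stood at 278 CPM in Tfr against 184 in Treg (1.51-fold, 1.202 to 1.89) and 211 in Tfh cells (1.32-fold, 1.05 to 1.64), and fatty acid synthesis at 105 against 107 in Treg (ratio 0.983, 0.671 to 1.40) and 189 in Tfh cells (1.80-fold lower, 1.28 to 2.62). The Tfr intervals (224 to 342 and 72.8 to 147) include the effector Treg levels of both arms. Ebp stood at 133 CPM in Tfr, 78.7 in Treg and 85.7 in Tfh cells, with ratios of 1.69 (1.198 to 2.33) and 1.55 (1.10 to 2.13). Hsd17b7, on 5 Tfr UMIs from 3 cells, was 5.89-fold higher than in Treg cells (1.58 to 18.9). That interval treats UMIs as independent and is too narrow where few cells give them. Against Tfh cells, 2 of 23 members were at least 2-fold higher (Mvd and Hsd17b7, background 5.68%) and 3 lower (Tm7sf2, Stard4 and Fasn, background 7.14%), and against Treg cells 2 of 22 were higher (Nsdhl and Hsd17b7, background 9.59%) and 0 lower (background 6.06%). Of these, Fasn stood at 12.4 CPM in Tfr and 31.0 in Tfh cells (2.51-fold lower, 0.957 to 9.34), and Mvd and Hsd17b7 each had 5 UMIs in Tfr and 19 in Tfh cells (3.54-fold, 1.03 to 9.81). The members called higher in Tfr cells passed the filter only through the Tfr gate. Tm7sf2 and Stard4, called lower, passed it only through the Tfh gate. Scd2 stood at 55.7 CPM, between 32.3 in Treg and 88.2 in Tfh cells, with intervals of both ratios that include 1. Scap and Stard4, on 3 and 2 Tfr UMIs, were imprecise. Of the other listed lipid genes, Abcg1 was 2.08-fold lower in Tfr than in Treg cells (1.08 to 4.62), while Abca1 against Treg and Osbp against Tfh cells passed 2-fold lower on 2 and 3 Tfr UMIs. Tm7sf2 had 0 UMIs in Tfr cells, with an exact upper bound of 11.4 CPM, which lies above its 10.1 CPM in Tfh cells, so no difference was detectable at this depth. Removal of doublets took 23 of 68 Tfr cells; without it, the fatty acid sum against Tfh cells had a log2 ratio of −0.39 rather than −0.85 and the sterol sum against Treg cells one of 0.56 rather than 0.60, and 0 members were 2-fold higher than in Treg cells.

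Because the series concerns Sostdc1 made by a subset of Tfh cells, the lipid genes were also compared within the Tfh gate. Of the 595 Tfh cells, 97 had a Sostdc1 UMI and 498 had none, with median depths of 6712 and 6698 UMIs. Summed levels were 604 against 637 CPM over the 28 genes (ratio 0.948, 0.854 to 1.05), and each arm's interval included 1. Acly stood at 67.3 against 44.4 CPM (1.51-fold, 1.08 to 2.096) and Scd2 at 67.3 against 92.4 (ratio 0.728, 0.528 to 0.984). Tm7sf2 stood at 16.5 against 8.83 CPM (1.86-fold, 0.875 to 3.72), Hmgcs1 at 9.61 against 17.4 (ratio 0.553, 0.213 to 1.21) and Srebf1 at 24.7 against 17.9 (ratio 1.38, 0.769 to 2.35). At 2-fold, 0 of 22 members were higher, where 1.62% of genes were, and 2 lower, where 2.39% were, Idi1 on 3 UMIs (2.75-fold lower, 0.876 to 13.9) and Nsdhl on 4 (2.76-fold, 1.02 to 10.5). Idi1, Nsdhl and Hmgcs1 passed the filter only through the cells without a Sostdc1 UMI, and Tm7sf2 only through those with it. Their ratios are therefore a description. At this depth a cell with no Sostdc1 UMI may still express the gene.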

How the data were processed

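RNA of sorted Tfr cells (2 bulk libraries) and of single CD44-positive CD4 T cells (1 library) was analysed; the 8 other samples were not. Per the labels' protocols, bulk libraries came from Trizol RNA with an NEBNext kit. Per the submitters' processing notes, tools of the series include TopHat, Cufflinks, Seurat and Cell Ranger 2.1.0, with no roles given; per the file headers, version 3.1.0 of Cell Ranger made the matrix. The bulk table's counter, strand setting and annotation were not given in the sources used here. In the bulk table are whole-number counts and, as deposited by the authors, CPM, the ratio or fold change of these, its log2 value, and p-values, which were not used because each group had 1 library. The column taken for the library labelled WT carries a number that no label has; it was matched because no other WT Tfr RNA sample is labelled. The deposited matrix holds UMI counts.

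CPM were recomputed from the counts. Ratios carry exact conditional binomial intervals and summed UMIs exact Poisson intervals (SciPy 1.17.1). Calls by size used log2(CPM + 1), at least 5 CPM in bulk and 10 CPM in single cells. Of the single-cell barcodes, 835 had under 500 genes and 1644 had 10% or more of their UMIs from mitochondrial genes; 13190 cells passed both filters. The 1319 cells with the highest share of simulated doublets among 50 neighbours in 30 principal components were removed. A T cell had fewer than 3 UMIs over 4 B cell genes, among them Cd79a, Cd79b and Ms4a1, and fewer than 3 over Lyz2, Csf1r, Itgax and Cst3. The other B cell gene and the other marker of the resting gate are not reported here. TMM factors came from edgeR 4.0.16. In bulk every member is named; in gate pairs, members with the largest ratios per group and those past 2-fold. The intervals and size rule were tested on simulated data. The members and lists were chosen with earlier results of these data known. Alternatives were pseudocount, filters, scaling, doublet removal, gate minimum, thinning and averaging over cells.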

Additional observations from a re-analysis of the deposited data

How the results depend on the processing

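No paired analysis was possible because each group analysed had 1 library, and leaving out a replicate was not possible for the same reason. In bulk, 2 members were 2-fold higher and 1 lower with TMM scaling, 2 higher and 0 lower with median-of-ratios scaling, and 7 higher and 4 lower at 1.5-fold. The median log2 ratio of the squalene to cholesterol arm, 0.45 with library totals, was 0.60 with TMM and 0.67 with median-of-ratios scaling, and that of the mevalonate arm turned from 0.18 to −0.064 with a filter of 1 CPM or none, which adds Fdps. In single cells, the count of members 2-fold higher in effector Treg than Treg cells was 3 without doublet removal or at 20 CPM and 9 at 1.5-fold (21.2% of all genes); the log2 ratio of the summed mevalonate arm there was 0.58 without doublet removal, against 0.67, that of the sterol arm 0.47 without Ebp, and that of fatty acid synthesis −0.19 with gates at 2 UMIs, against 0.06. For Tfh against resting cells, the count was 2 without doublet removal or at 20 CPM and 10 at 1.5-fold (29.2%), and summed log2 ratios passed 1.5-fold for the mevalonate arm (0.68), the sterol arm (0.62) and the sensing group (0.59) with gates at 2 UMIs, for the sensing group when thinned to 3000 UMIs (0.66), and for the sterol arm without Ebp (0.61). For cycling against resting cells, 16 members were higher at 1.5-fold, and 1 was lower with gates at 2 UMIs, thinned or at 1.5-fold. For Tfr against Tfh cells, the higher count was 1 without doublet removal and 0 at 20 CPM, the lower count 0, 1 at 20 CPM and 6 at 1.5-fold (16.3%), and the fatty acid log2 ratio −0.39 without doublet removal. For Tfr against Treg cells, the higher count was 0 without doublet removal or at 20 CPM and 7 at 1.5-fold (23.2%), the lower count 3 at 1.5-fold (13.5%), and the sterol log2 ratio 0.56 without doublet removal, 0.40 thinned and 0.47 without Ebp. The causes were not tested, apart from the fewer or more genes that a filter or size rule itself admits. With gates at 2 UMIs the Tfr gate held 1 cell and gave no value. Excluding Ebp and the cell with haemoglobin was chosen after the data were seen. The Tfr gate is limited by its 45 cells, with 189 UMIs over the 28 genes.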

Other observations

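Fdps was nearly uncounted in bulk but common in single cells. It had 37 and 26 counts, or 1.33 and 1.44 CPM, in the Tfr libraries labelled KO and WT, whereas by UMIs it was the fifth most abundant of the 28 genes among T cells, at 35.6 CPM, with 2044 UMIs; Tfr cells gave 10 UMIs, or 30.9 CPM. The scales differ, since bulk counts grow with transcript length, but the cause of the gap for Fdps was not tested.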
